A study of Mus musculus with 2 samples.

Results

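The genes described here encode the enzymes that place and remove methyl groups on histones, the polycomb proteins, and a pair of histone acetyltransferases. The 35 genes were taken by name, as 9 polycomb genes, 13 writers (histone methyltransferases of the KMT2, SETD, NSD, DOT1L, ASH1L, SETDB and EHMT kinds), 11 erasers (histone demethylases, KDM) and 2 acetyltransferases, out of 21887 protein-coding genes. In them, candidate 5-formylcytosines (5fC) were located with CLED-seq in embryonic stem cells of the mouse, a cultured cell that can still form every tissue of the embryo. This assay tags 5fC with biotin, captures the tagged fragments and then treats them with an enzyme that deaminates unprotected cytosines, so that a protected cytosine is still read as C. Both libraries, replicates 1 and 2, come from untreated cells with no labelled genotype, strain or sex, and no control library or second condition was analysed here. Each gene was taken as its RefSeq span on GRCm38 (the build also called mm10) with 2 kb on either side, which is called its window.

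The histone marks these enzymes write work as opposing systems. Polycomb repressive complex 2, built from Ezh1 or Ezh2 with Suz12 and Eed, methylates a lysine of histone H3 and keeps developmental genes silent, while polycomb repressive complex 1, with Ring1 or Rnf2, ubiquitinates histone H2A. The KMT2 and SETD1 enzymes place the H3 methylation found at active promoters and enhancers, and the KDM enzymes take methyl groups off again. In embryonic stem cells both kinds of mark meet on the promoters of lineage genes. 5fC itself arises when TET enzymes oxidise methylated cytosine, and the glycosylase TDG can excise it.

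A called cytosine is one that the deposited lists hold, with at least 30 reads and an adjusted p under 0.05. Its level is the percentage of those reads that kept the C among captured fragments, which is not the percentage of genomic copies with 5fC. Cytosines that were not called are not listed, and neither coverage nor CpG number per gene was analysed here. A gene without a call may therefore be unmodified or uncovered. Unconverted cytosine cannot be told apart from 5fC in these lists, so each call, above all outside CG, is a candidate. The windows held 46 called cytosines in replicate 1 and 52 in replicate 2, of 28569 and 29650 in all, and 75 distinct positions. Depth at these sites ran from 30 to 60 reads (median 35) in replicate 1 and from 30 to 52 (median 34) in replicate 2. None of the sites lay in the 13 windows of 10 kb that held 10 or more sites in either library.

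At 4 genes the promoter sequence itself held a cytosine called in both libraries, and these stretches are shown because they place the call at the start of the gene. They are RefSeq sequence of GRCm38.p6, read 5′ to 3′ on the strand of the gene (minus for all 4). Capitals mark the CG of a called CG site, or the called cytosine with its next bases elsewhere. At Ezh1, Kmt2a and Kdm1a the called cytosine is on the opposite strand, so the capitals show its complement. In the Kmt2a stretch the capitals nearer the 3′ end mark the CG site called in both libraries, and the capitals GGG nearer the 5′ end mark a cytosine that was listed in replicate 1 alone. For the CG sites of Ezh1 (chr11:101226464-101226713) and Kmt2a (chr9:44881290-44881539) the 250 bases before the start of transcription are given. For the non-CG sites of Kdm1a (chr4:136602725-136602754) and Crebbp (chr16:4213363-4213392) 30 bases are given.
Ezh1: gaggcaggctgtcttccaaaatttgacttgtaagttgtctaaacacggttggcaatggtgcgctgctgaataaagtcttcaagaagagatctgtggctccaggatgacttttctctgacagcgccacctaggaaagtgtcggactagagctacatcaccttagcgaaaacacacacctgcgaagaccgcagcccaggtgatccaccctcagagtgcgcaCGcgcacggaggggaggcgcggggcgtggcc
Kmt2a: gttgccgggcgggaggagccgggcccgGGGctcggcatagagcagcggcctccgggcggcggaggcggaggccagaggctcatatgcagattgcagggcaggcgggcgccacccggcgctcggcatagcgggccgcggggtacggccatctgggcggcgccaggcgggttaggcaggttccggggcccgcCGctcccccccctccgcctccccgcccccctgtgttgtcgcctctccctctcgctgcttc
Kdm1a: cttttttgtcctgGTGcggcgggagcgcgc
Crebbp: gctgagatttggccgCCGcctcccccaccc

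The Ezh1 stretch holds 14 CpGs and the Kmt2a stretch 29, and a single CpG of each was called, in both libraries. The promoter table had windows of 300 bases (250 before to 50 after the start) for 27 of the 35 genes, 35 windows in all. Of these, 4 held a shared call, against 0.919% of all 32851 promoter windows, and 2 held a shared CG call, against 0.256%. A shared call is one listed in both libraries at the same position and strand. Most shared sites had identical counts in both libraries, as given below, so a shared call is not read as independent replication. The genes' windows had a median of 29 CpGs and all windows a median of 7. Among windows with at least 20 CpGs, a cutoff chosen after the values were seen, 4 of 28 of these genes' windows held a shared call against 2.28% of 8701, and 2 of 28 a shared CG call against 0.782%. In 1006 of 1006 called positions whose next bases lay inside a promoter window, the listed trinucleotide matched the RefSeq sequence on the listed strand.

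A shared call was found in 15 of the 35 genes, against 22.2% of protein-coding genes and 24.2% of the 16929 protein-coding genes whose windows lie in the same length range (7.89 to 231 kb). A shared CG call was found in 5, Ezh1, Kmt2a, Kmt2c, Kmt2d and Kdm6b, against 3.16% of protein-coding genes and 3.29% of those in the length range. The windows of these genes are long, with a median of 69.0 kb against 21.2 kb over protein-coding genes and 26.6 kb in the length range, and a longer window can hold more calls. In sites per 100 kb, which takes length into account, the genes stood at 1.71 in replicate 1 (exact Poisson 95% interval 1.25 to 2.29) and 1.94 in replicate 2 (1.45 to 2.54). Protein-coding genes in the length range stood at 1.83 and 1.90, inside both intervals. Shared calls stood at 0.857 per 100 kb in these genes (0.543 to 1.29). That interval holds the 0.611 of protein-coding genes and the 0.750 of those in the length range. The density of shared CG calls was not computed. At this depth the density of calls in the histone enzyme genes was thus not separable from that of other genes. All intervals here cover counting error only, because PCR copies of 1 molecule could not be recognised by a molecular identifier. No call was found in either library in 8 genes, against 11395 of 21887 protein-coding genes and 7837 of 16929 in the length range. The 8 are Suz12 and Ring1 among the polycomb genes, Setd1a and Setdb1 among the writers, Kdm3a, Kdm5a and Kdm6a among the erasers, and Ep300.

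**Figure D1:**
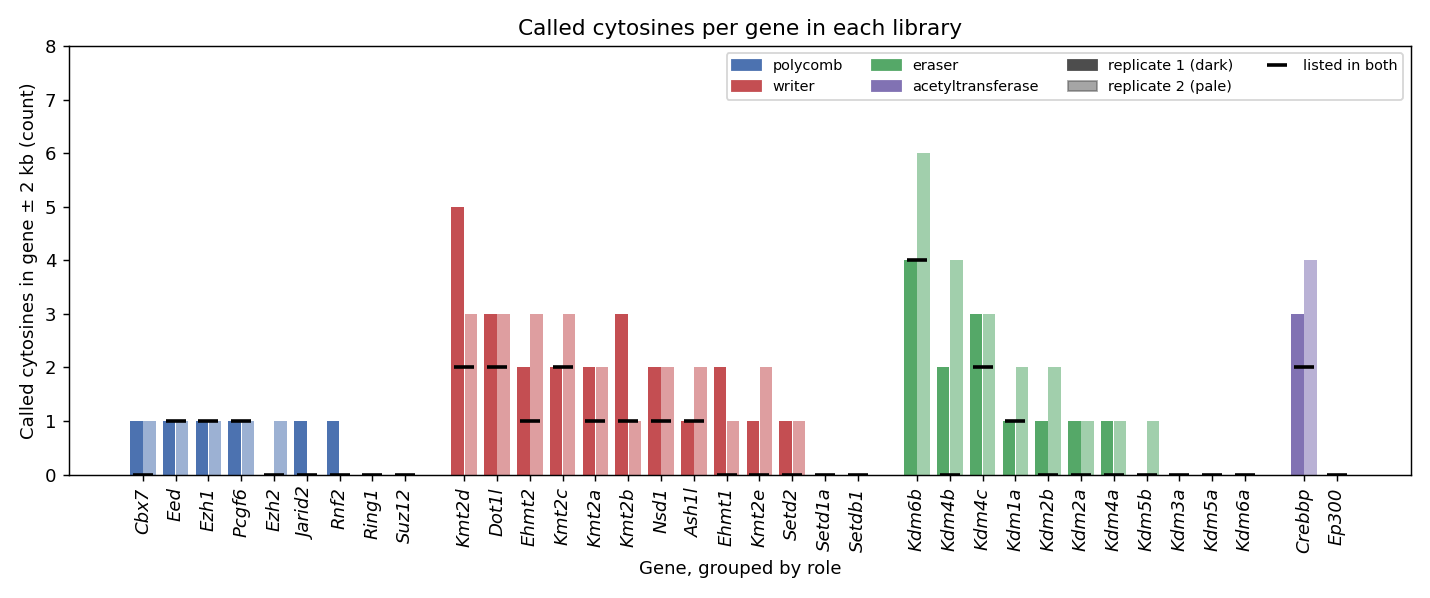
Number of called cytosines (vertical axis, count) in the window of each of the 35 genes (horizontal axis), coloured by role, with dark bars for replicate 1, pale bars for replicate 2 and black ticks for positions listed in both. Kdm6b had 4 sites in replicate 1 and 6 in replicate 2, and 8 genes had none in either.

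The polycomb genes held few calls, 6 in replicate 1 and 5 in replicate 2, and none of the 9 genes had more than 1 call in a library. Shared calls lay in Ezh1, Eed and Pcgf6. Ezh1, the methyltransferase subunit that can take the place of Ezh2, carried its single call at position 101226493 of chromosome 11 on the plus strand. It lies 30 bp upstream of the gene (101191115 to 101226463), in the CG capitalised above. There, 15 of 38 reads kept the C in each library, a level of 39.5% (95% Wilson interval 25.6 to 55.3).

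Eed, the subunit that reads the mark made by its own complex, had the highest polycomb level. At position 89972567 of chromosome 7, a CHH site (H is any base but G) inside the gene, 28 of 30 reads kept the C in both libraries, or 93.3% (78.7 to 98.2). Pcgf6, a subunit of a variant repressive complex 1, held a CHG site at position 47049211 of chromosome 19, 1728 bp inside its 5′ end, with 21 of 31 reads in both libraries (67.7%, 50.1 to 81.4). The intervals of Ezh1 and Eed do not overlap, but these are the lowest and the highest of the shared polycomb sites and differ in context. The catalytic subunit gene Ezh2 had 1 call, in replicate 2 alone (16 of 30 reads, 53.3%), and Jarid2, which helps recruit repressive complex 2, had 1 in replicate 1 alone (11 of 30, 36.7%). Rnf2, the main ubiquitin ligase of repressive complex 1, held a CG site in replicate 1 alone, 650 bp inside its 5′ end at position 151500341 of chromosome 1, with 13 of 34 reads (38.2%, 23.9 to 55.0).

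The writers held the most calls, 24 in replicate 1 and 23 in replicate 2, over the longest summed window of the roles (1056 kb). A call in either library lay in 11 of 13 genes, against 10492 of 21887 protein-coding genes and 9092 of 16929 in the length range. Their windows had a median of 75.2 kb, against 21.2 kb over protein-coding genes and 26.6 kb in the length range. Writers made up 3 of the 5 genes with a shared CG call, and all 3 belong to the KMT2 family. Kmt2a, which maintains expression of homeobox genes, had its CG site at position 44881348 of chromosome 9, just inside the gene (4 bp from its 5′ end) and 59 bp before the start used in the promoter table. The long noncoding RNA gene Gm39326 overlaps this position. In both libraries 11 of 52 reads kept the C, a level of 21.2% (12.2 to 34.0) and the lowest of the 23 shared sites in these genes. A CHH site of replicate 1 alone, 158 bp upstream of the gene, stood at 13 of 37 reads (35.1%).

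Kmt2c, which with Kmt2d methylates histones at enhancers, held the highest level. At position 25499097 of chromosome 5, a CG site 242 bp upstream of the gene, 40 of 40 reads kept the C in both libraries, a level of 100% with a lower bound of 91.2%. The interval of this site does not overlap that of the Kmt2a site. These are the highest and the lowest of all shared sites in the 35 genes. Their gap follows from that choice and is not read as a difference between the related genes. A second shared site of Kmt2c, CHH and deep inside the gene at position 25334982, stood at 28 of 35 reads (80%) in both libraries. Replicate 2 also listed a CHH site 358 bp upstream, at 31 of 43 reads (72.1%).

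Kmt2d had 5 calls in replicate 1 and 3 in replicate 2 over a window of 46.4 kb on chromosome 15. Among the 2763 protein-coding genes with a window within 25% of that length, 19 had at least as many in both libraries (0.688%). This share was computed for the 27 genes with a call. It was lowest for Kdm6b (values with the erasers) and Kmt2d, was at least 5% for 22 of them, and reached 82.6% at Jarid2. Its CG site at position 98871490 lies 2587 bp inside the 5′ end. There 16 of 41 reads kept the C in replicate 1 and 16 of 42 in replicate 2 (39.0% and 38.1%). A shared CHG site at 98864671 stood at 9 of 33 reads in both (27.3%). Kmt2b, the paralogue of Kmt2a, had 3 calls and 1, with a shared CHG site at position 30571938 of chromosome 7 (10 of 30 reads in both, 33.3%). Kmt2e, the most divergent member of the family, had no shared call. Replicate 2 alone listed a CG site in it, at position 23442480 of chromosome 5, with 26 of 30 reads (86.7%, 70.3 to 94.7).

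Among the other writers, Dot1l, which methylates the core of H3, had 3 calls in each library. At position 80770704 of chromosome 10, a CHH site, 26 of 60 reads kept the C in replicate 1 and 13 of 31 in replicate 2 (43.3% and 41.9%). At position 80791463, a CHG site, 11 of 40 reads kept it in both (27.5%). Ehmt2, which with Ehmt1 methylates H3 in silent chromatin, had 2 and 3 calls in a window of 19.6 kb. Its shared CHH site at position 34911111 of chromosome 17 stood at 24 of 31 reads in both (77.4%, 60.2 to 88.6). Replicate 2 alone listed CG sites in Ehmt2 (7 of 30 reads, 23.3%) and in Ehmt1, 280 bp inside its 5′ end (14 of 30, 46.7%). Nsd1, whose product methylates H3 over active regions, held a shared CHH site at 8 of 32 reads in both libraries (25%). Ash1l, a trithorax-group writer, held one at 8 of 35 and 10 of 37 reads (22.9% and 27.0%). Setd2, which acts along transcribed genes, had 1 call in each library at different positions.

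The erasers held 13 calls in replicate 1 and 20 in replicate 2, and a single gene, Kdm6b, held 4 of their 7 shared calls. Kdm6b removes the methylation that polycomb complex 2 places. Its window on chromosome 11 (gene 69398508 to 69420367) spans 25.9 kb and held 4 sites in replicate 1 and 6 in replicate 2, so every site of replicate 1 was listed again. Of the 3764 protein-coding genes with a window within 25% of that length, 1 had at least as many in both libraries (0.0266%). Along the chromosome the sites run from 6.29% to 77.5% of the gene span. Those at 69410439, 69411520 and 69412358 lie closer together, between 54.6% and 63.4% of it. The CG site at position 69399884 had 23 of 35 reads in both libraries (65.7%, 49.2 to 79.2), and the gene Tmem88 lies within 2 kb of it. CHH sites at 69403907 and 69412358 had 22 of 33 reads (66.7%) and 27 of 31 (87.1%) in both. The CHH site at 69415459 had 17 of 42 and 17 of 43 (40.5% and 39.5%). Replicate 2 added CHG sites at 30 of 31 reads (96.8%) and 8 of 31 (25.8%). Levels within this gene thus covered most of the range seen over all the genes.

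Without Kdm6b, the other 10 erasers stood at 1.01 and 1.57 sites per 100 kb, with 3 shared calls, none of them CG. Kdm6a, the related demethylase gene on the X chromosome, had no call in a window of 123 kb. Kdm4c, a demethylase of H3 marks in silent chromatin, held shared CHH sites at position 74258041 of chromosome 4 (21 of 35 and 21 of 34 reads, 60% and 61.8%) and at 74397135 (12 of 30 in both, 40%). Kdm1a, the flavin-dependent demethylase, held the shared CHH site shown above, 48 bp inside the gene and 16 bp before the start in the promoter table. It stood at 9 of 40 reads in both libraries (22.5%, 12.3 to 37.5), the lowest of the shared eraser sites. Kdm4b had 2 calls in replicate 1 and 4 in replicate 2 without a shared position, and 4 of the 6 lay where the noncoding RNA gene Gm32715 overlaps it. Kdm2a, whose product binds CpG-rich DNA, held a CG site in replicate 2 alone, at position 4397049 of chromosome 19, where 33 of 34 reads kept the C (97.1%, 85.1 to 99.5). The protein-coding gene 9430078G10Rik overlaps that position. Kdm2b and Kdm4a had no shared call, and Kdm5b had 1 call, in replicate 2 alone.

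Crebbp and Ep300 encode closely related acetyltransferases, and calls were found in the window of Crebbp alone. Crebbp had 3 calls in replicate 1 and 4 in replicate 2 over 137 kb on chromosome 16, while Ep300 had 0 in 69.9 kb. The Poisson interval of Ep300, 0 to 5.28 sites per 100 kb in each library, holds the 2.20 and 2.93 of Crebbp. The densities of the related genes were thus not separable. At position 4138552 of Crebbp, a CHH site, 31 of 32 reads kept the C in both libraries (96.9%, 84.3 to 99.4). The CHG site at 4213377, shown above, lies 580 bp inside the gene and stood at 34 of 43 reads in replicate 1 and 34 of 44 in replicate 2 (79.1% and 77.3%). The CG site of Crebbp, at 4213253, was listed in replicate 2 alone with 19 of 32 reads (59.4%).

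**Figure D2:**
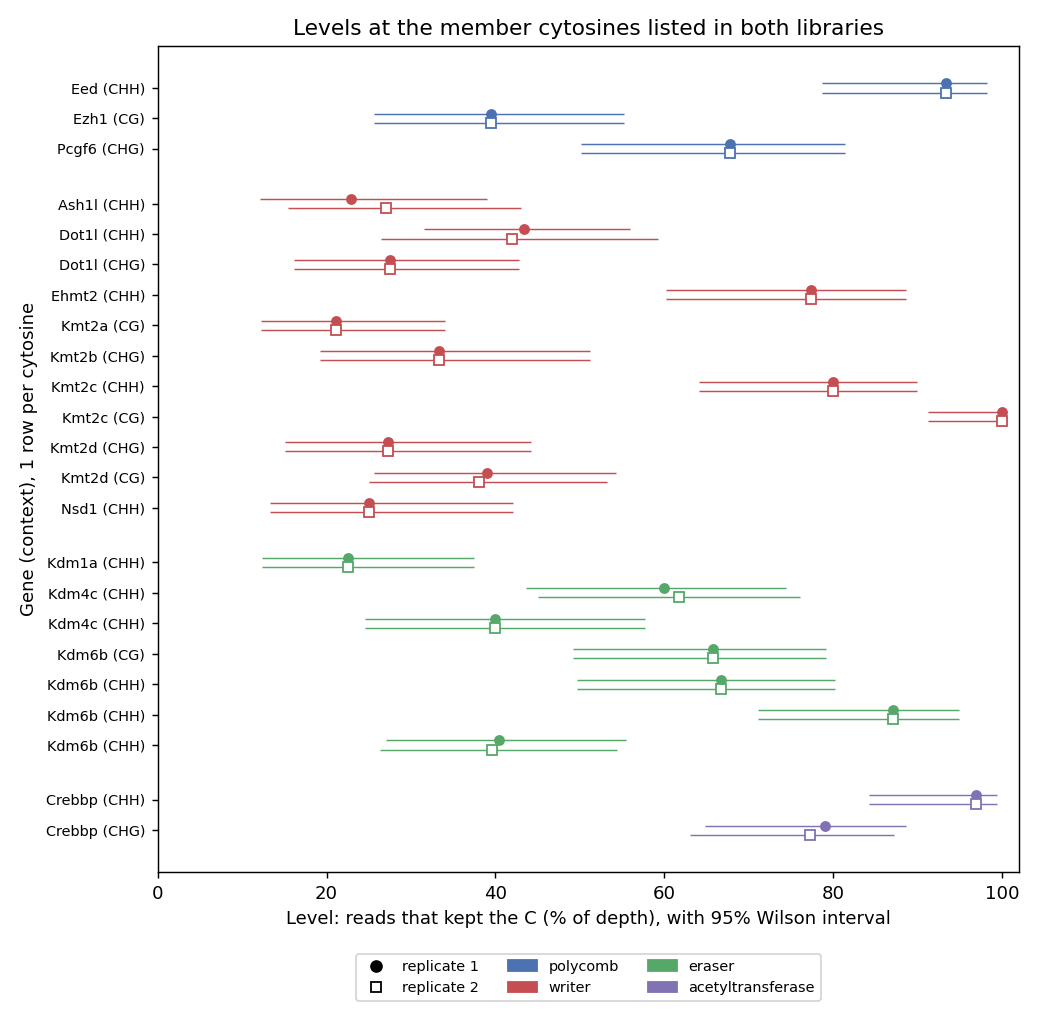
Level (horizontal axis, percentage of reads that kept the C) at the 23 cytosines of these genes listed in both libraries, 1 row per cytosine with its gene and context, circles for replicate 1, squares for replicate 2 and lines for 95% Wilson intervals. Levels ran from 21.2% at Kmt2a to 100% at Kmt2c, and the symbols of both libraries lie on or near each other in every row.

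Between roles, writers stood at 2.27 sites per 100 kb in replicate 1 (1.46 to 3.38) and 2.18 in replicate 2 (1.38 to 3.27). Polycomb genes stood at 1.19 (0.438 to 2.60) and 0.995 (0.323 to 2.32), and erasers at 1.41 (0.752 to 2.42) and 2.17 (1.33 to 3.36). The 2 acetyltransferase genes stood at 1.45 and 1.94. The Poisson intervals of all roles overlapped in each library, so the order of the roles was not resolved. It also differed between libraries, with erasers well below writers in replicate 1 and level with them in replicate 2. Over single genes the median density was 1.51 and 1.63 sites per 100 kb over the 35 genes, against 0 in both libraries over protein-coding genes. Only 8633 and 8815 of the 21887 protein-coding windows held any call, which sets their median at 0. Their windows are also shorter (median 21.2 kb against 69.0 kb), so these medians do not show a higher density. The densest writers were Ehmt2 (10.2 and 15.3), Kmt2b (12.4 and 4.13), Kmt2d (10.8 and 6.46) and Dot1l (6.76 in both), in an order that differed between libraries. The densest polycomb genes were Pcgf6 (4.69 in both) and Eed (3.30 in both), each from a single site. After Kdm6b (15.5 and 23.2), the next eraser was Kdm4b (2.44 and 4.89).

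**Figure D3:**
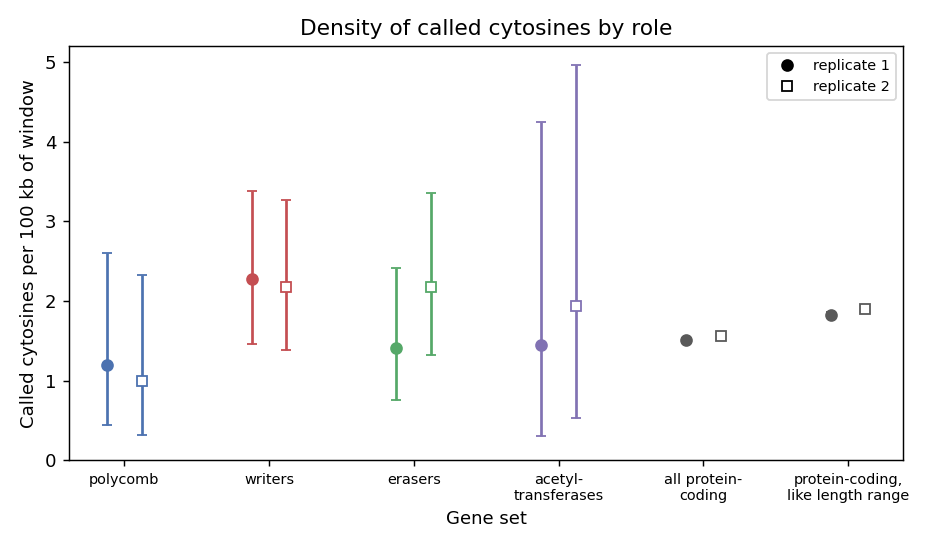
Called cytosines per 100 kb of window (vertical axis) for each role and for protein-coding genes (horizontal axis), with circles for replicate 1, squares for replicate 2 and bars for exact Poisson 95% intervals. The writers lie at 2.27 and 2.18 and the polycomb genes at 1.19 and 0.995, with overlapping intervals.

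In the windows of these genes, 6 of 46 calls were CG in replicate 1 (13.0%, Wilson 6.12 to 25.7) and 10 of 52 in replicate 2 (19.2%, 10.8 to 31.9). In all calls of the series CG made up 8.01% and 8.20%, and in the windows of protein-coding genes 9.45% and 9.76%. The interval of replicate 1 holds these values and that of replicate 2 lies above them, and the CG share of the covered cytosines was not analysed here. The CG calls of replicate 2 include those of Crebbp and Ehmt2. For each of these, replicate 1 listed the same counts at a non-CG position within 120 bp. The share without them was not computed. By role, writers had 3 and 6 CG calls, polycomb genes 2 and 1, erasers 1 and 2, and acetyltransferases 0 and 1. In distinct positions, CA, CC, CT and CG made up 29.3%, 25.3%, 30.7% and 14.7% of the 75, against 32.2%, 28.9%, 30.9% and 7.96% over the series. Sites fell evenly on the plus and minus strands (38 and 37), and in genes whose strand is known on the gene's own strand and the other (24 and 26).

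The median level at the 23 shared sites was 43.3% in replicate 1 and 41.9% in replicate 2, against 50% in both over all 11542 shared sites. The writers' median was 33.3% in both libraries over 11 shared sites. It was 60% and 61.8% over 7 eraser sites and 67.7% in both over 3 polycomb sites. Over all called sites the roles lay closer together. Their medians were 37.1% and 36.7% in writers, 40.5% and 43.9% in erasers, and 38.9% and 53.3% in polycomb genes, so no order of the roles is read from the few shared sites. Each role held levels below 40% and above 75% except the acetyltransferases, and 4 of the 7 eraser sites belong to Kdm6b. At the 5 shared CG sites the median was 39.5% in both libraries, and at the 18 other shared sites 51.7% and 51.9%. Over all called sites the medians were 39.2% and 53.0% for CG and 40.8% and 41.0% for the others, so neither context was higher throughout. A level of at least 90% in both libraries was found at 3 of the 23, in Kmt2c, Eed and Crebbp, and at 1679 of 11542 over the series, a like share.

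Of the 11 CG positions, 6 lay within 1 kb of an end of their gene, in each case the 5′ end. The 3 in genes without a known strand, at Kdm6b (1376 bp), Kdm2a (1672 bp) and Kmt2e (9444 bp), lay farther than 1 kb from the nearest end. For the 27 genes with a strand in the promoter table, 6 of 8 CG positions (75%, Wilson interval 40.9 to 92.9) and 5 of 42 other positions (11.9%, 5.19 to 25) lay within 1 kb of the 5′ end of the span. Over the 17492 protein-coding genes with a strand, the same was true of 30.7% of 2069 CG positions and 10.2% of 19751 others. The 6 belong to Ezh1, Rnf2, Kmt2a, Kmt2c, Ehmt1 and Crebbp, with 3 of them listed in both libraries. CpGs themselves are packed at the 5′ ends of many genes, and how many of the covered CpGs lay there was not analysed here. Of all 75 positions, 69 lay inside a gene and 6 in a flank, 5 of these at writers and 1 at a polycomb gene. Exons and introns are not part of the gene table, so which of them held a site was not determined. Another RefSeq gene overlapped the position at 11 of the 75.

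**Figure D4:**
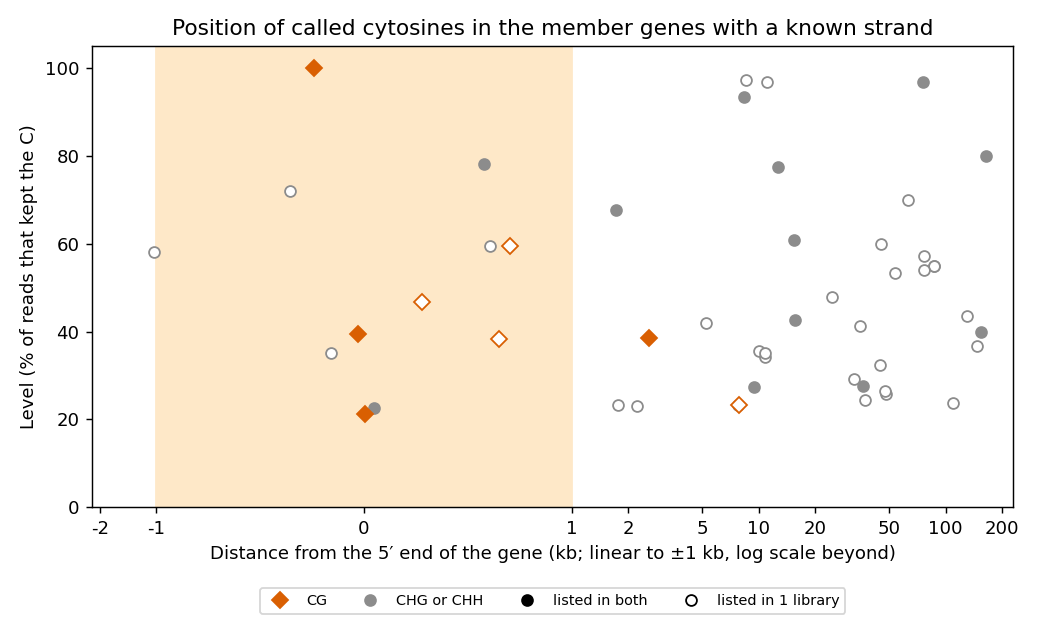
Level (vertical axis, % of reads that kept the C, mean of the libraries where both list the site) against distance from the 5′ end of the gene (horizontal axis, kb, linear to 1 kb on either side and on a log scale beyond) for the 50 called positions in genes with a known strand. Orange diamonds are CG sites and grey circles other sites, filled where listed in both libraries, and 6 of the 8 diamonds lie in the shaded band within 1 kb of the 5′ end.

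The libraries agreed in counts at shared sites far more closely than in which sites they listed. Of the calls in these genes, 50% of replicate 1 and 44.2% of replicate 2 were shared, against 40.4% and 38.9% over the series. At 17 of the 23 shared sites both counts were identical (73.9%, and 70.6% over the series), so the libraries differed by less than the sampling noise and were counted as 1 sample there. Levels are for this reason given per library with no SD, and a shared call is not read as independent replication. No label says that the libraries came from separate cultures, so their spread may be technical. Fisher's exact test (two-sided, Benjamini-Hochberg adjustment over all shared sites) called none of the 23, and none had an unadjusted p under 0.05, against 0.026% of shared sites called over the series. Identical counts fix p at 1, so at 17 of the 23 the test adds nothing to the counts themselves. The lowest unadjusted p among the 23 was 0.788, at Ash1l.

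Sites listed in a single library were 23 in replicate 1 and 29 in replicate 2. In replicate 2, 5 of the 29 had a level of at least 90%, in Kdm1a (34 of 35 reads), Kdm2a, Kdm6b, Kdm4b (29 of 31) and Dot1l (31 of 32). In replicate 1 none of the 23 reached 90%, and the highest was 82.4%, in Kmt2b. Over the series 12.5% and 12.0% of such sites reached it. In 6 genes a site of replicate 1 alone had a partner of replicate 2 alone within 120 bp whose counts of kept and lost reads each differed by at most 1. In Crebbp, 19 of 32 reads kept the C at 4213352 in replicate 1 and 19 of 32 at the CG site 4213253 in replicate 2, 99 bp away on the other strand. Ehmt2 had 7 of 30 reads at positions 75 bp apart, CHG in replicate 1 and CG in replicate 2. Kdm4c had 22 of 40 reads at positions 117 bp apart, and Cbx7, Kdm4b and Kmt2d had pairs 96, 110 and 92 bp apart. Such partners were found for 26.1% of the single-library sites of replicate 1 in these genes and 20.8% over the series, and for 20.7% and 19.5% of those of replicate 2. In Setd2 (20 of 37 and 20 of 35 reads) and at a further place in Kdm4b (16 of 40 and 15 of 41) nearby sites missed this limit by 1 read. The CG calls of Crebbp and Ehmt2 thus rest on a position that the other library did not list, with near-equal counts at a non-CG position close by.

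The other genes of these systems were described with 69 genes outside the 35. They were 26 polycomb subunits and partners, 22 further methyltransferases, 9 subunits and partners of the KMT2 complexes, and 12 further demethylases. Of the 69, 20 held a shared call and 3 a shared CG call, near the 22.2% and 3.16% of protein-coding genes that did. Their density was 1.74 sites per 100 kb in replicate 1 (1.38 to 2.17) and 1.78 in replicate 2 (1.41 to 2.21), and the intervals of the 35 genes overlap these. Mecom, a transcription regulator gene with a PR domain, held a shared CG site at 10 of 32 reads in both libraries (31.3%). The arginine methyltransferase gene Carm1 held one at 16 of 31 in both (51.6%). Uty, the Y-linked relative of Kdm6a, held one at 11 of 34 and 12 of 37 reads (32.4% in both). Of the 26 polycomb partners, 7 held a shared call and none a shared CG call. Neither count stands apart from those shares. The 9 subunits and partners of the KMT2 complexes, such as Wdr5 and Ash2l, held no shared call and 2 calls in each library. The Poisson interval of their shared calls, 0 to 1.16 per 100 kb, holds the 0.611 of protein-coding genes.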

How the data were processed

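Per the labels' protocols, DNA from the stem cells was sheared, its 5fC tagged with biotin, captured on streptavidin beads, deaminated and amplified. The build was mm10, and Bismark 0.23.1 with Bowtie2 2.4.5 is listed beside SAMtools, FastQC 0.11.9 and cutadapt 4.1 in the submitters' processing notes. Treatment of duplicate reads was not given in the sources used here. The authors deposited, per the file headers, raw counts of reads that kept and lost the C at each called cytosine, and a p-value with its adjusted values. The 2 lists sum to 1039807 and 1078502 reads, which is not the depth of the libraries.

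Sites were assigned to RefSeq windows (GRCm38.p6) with Python 3.11.15, numpy 2.4.6, pandas 2.3.3 and scipy 1.17.1. No condition could be compared, so sites are given as counts, densities and levels with Poisson or Wilson 95% intervals. Fisher's exact test ran on all 11542 shared sites and was tested on simulated data. The simulated counts were drawn independently for each library, whereas 70.6% of the real shared sites had identical counts. The simulation therefore does not show how the test behaves on such counts. Genes, lists and rules were chosen with earlier results of these data known. Named with values were every gene with a shared site, every CG site, shared sites at 90% or more, the lowest shared site and the 2 densest genes of each role, and other pathway genes with a shared CG site. Single-library sites given besides these were chosen after their values were seen. The comparisons by window length, CpG number and distance to the 5′ end were added after the values were seen.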

Additional observations from a re-analysis of the deposited data

How the results depend on the processing

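Of 53 alternatives over 10 results, 45 left a value inside its interval, or a count within 1.5 times, and 8 moved it. Of the 45, 13 could not differ, since no site of these genes has a level under 20% or lies in a dense window, and the Fisher count at a depth of at least 50 rests on 1 site. With a depth of at least 40, which keeps fewer sites by construction, the density fell to 0.521 sites per 100 kb in all genes, 0.568 in writers, 0.761 in erasers and 0 in polycomb genes, and 7 genes held a shared call and 3 a shared CG call. Without flanks, 3 genes held a shared CG call, since the sites of Ezh1 and Kmt2c lie outside the gene. With an adjusted p under 0.01 the median shared level was 63.3%, because that threshold removes low levels. Leaving out a replicate gave densities of 1.71 to 1.94 in all genes, 0.995 to 1.19 in polycomb genes, 2.18 to 2.27 in writers and 1.41 to 2.17 in erasers, and CG shares of 13.0% to 19.2%. Counting near-equal partners as shared gave 17 genes with a shared call, and its count of 7 for CG includes Crebbp and Ehmt2, whose partner is not CG. Leaving out Kdm6b was chosen after seeing the data. No paired analysis was possible because there is 1 group. Counts that need both libraries have no value with 1 library left out. Depth limits each level: 21 of 31 reads at Pcgf6 gave 67.7% with an interval of 50.1% to 81.4%.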
